A study of Mus musculus with 99 samples.

Results

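The genes described here are 6 members of the metabotropic glutamate (mGlu) receptor family, Grm2, Grm3, Grm4, Grm5, Grm7 and Grm8, out of 55335 genes counted in each library. They were found in the count files by their Ensembl identifiers, which GENCODE M21 pairs with the mouse symbols, and the rule uses no measured value. Bulk RNA-seq was done on tissue punches of 5 brain regions from juvenile wild-type C57BL/6 mice of both sexes. 2 regions were cortical, primary somatosensory (S1) and prelimbic (PrL). The others were ventrobasal thalamus (VBT), nucleus accumbens (NAc) and ventral tegmental area (VTA), a midbrain site of dopamine neurons. Dams had fentanyl, a synthetic opioid, at 10 µg/ml in their drinking water from embryonic day 0 up to weaning, and control dams had water alone. Region, sex and exposure made 20 groups of 5 libraries each, except S1 of males exposed to water, which had 4. The labels give neither litters nor animals, so the p-values measure the spread between these samples, and the regions may have been taken from the same mice.

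The mGlu receptors are class C G protein-coupled receptors that sense glutamate outside the fast ion channels. Group I receptors such as mGlu5 couple to Gq, release calcium from internal stores and sit mainly on dendritic spines, where Homer and Shank proteins anchor them. Group II (mGlu2 and mGlu3) and group III (mGlu4, mGlu6, mGlu7 and mGlu8) couple to Gi/o, lower cyclic AMP and act in large part on axon terminals, where they hold back transmitter release. In reward circuits, mGlu5 and mGlu2 are much studied as regulators of drug seeking.

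On GRCm38, as annotated by GENCODE M21, Grm5 (ENSMUSG00000049583) lies at chr7:87584168-88134907 on the plus strand. Grm2 (ENSMUSG00000023192) lies at chr9:106643095-106656082 and Grm3 (ENSMUSG00000003974) at chr5:9485541-9725170, both on the minus strand. Of the group III genes, Grm4 (ENSMUSG00000063239) lies at chr17:27422387-27521403 on the minus strand, and Grm7 (ENSMUSG00000056755) at chr6:110645581-111567230 on the plus strand. Grm8 (ENSMUSG00000024211) lies at chr6:27275119-28135178 on the minus strand. All 6 are protein-coding, with merged exon lengths between 3049 (Grm3) and 10247 bases (Grm5), and reads were counted over exons. The exons of Grm2 overlap the antisense gene Gm28111 by 470 bases, and those of Grm7 overlap the antisense gene Gm20387 by 130 bases. The library kit does not mark strand, so reads from these pairs cannot be told apart. A stretch of 96 bases of Grm8 also holds the microRNA gene Mir592.

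RefSeq start sites with 250 bases of upstream sequence (build GRCm38.p6) were matched for 4 of the 6 genes, Grm2, Grm3, Grm7 and Grm8. Those of Grm2, the gene whose level differed most between regions, and of Grm7, whose level differed least, are printed 5′ to 3′ on the strand of the gene. The first lies at chr9:106656110-106656359 and the second, at the more upstream of its start sites, at chr6:110645262-110645511. Capitals mark the GC box letters GGGCGG, which were searched on both strands.
Grm2: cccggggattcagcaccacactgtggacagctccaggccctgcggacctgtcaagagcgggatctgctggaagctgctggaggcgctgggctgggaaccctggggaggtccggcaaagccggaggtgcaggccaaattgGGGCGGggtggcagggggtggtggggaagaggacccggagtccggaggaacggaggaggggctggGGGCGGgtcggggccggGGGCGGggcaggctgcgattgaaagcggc
Grm7: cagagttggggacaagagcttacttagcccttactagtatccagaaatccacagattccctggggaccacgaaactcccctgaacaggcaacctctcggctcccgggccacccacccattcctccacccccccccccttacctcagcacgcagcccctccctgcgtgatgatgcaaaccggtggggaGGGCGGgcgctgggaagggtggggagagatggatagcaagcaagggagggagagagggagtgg
The Grm2 window was 71.2% G or C and held 3 GC boxes. That of Grm7 was 62% G or C and held 1, against a median of 52.4% G or C over 32851 mouse promoter windows of the same length. A GC box was present in 32.7% of those windows, so its presence is common. Neither the TATA box letters TATAAA (12.4% of windows) nor the cAMP response element letters TGACGTCA (1.55%) occurred in the windows of the 4 genes. None of these motifs contains another.

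Of 99 libraries, 98 were used. VTA male water 3 was left out because counts were present for 6333 genes, under the minimum of 10000, against 24079 to 27347 in the others. Totals over genes ranged from 16515545 to 52069639 counts, and levels are given in CPM, the standard scaling of a gene's count to the total of its library. Region markers followed the labels. Slc6a3, the dopamine transporter, was at 388 ± 195 CPM in VTA (SD, n = 19) and at most 0.886 CPM on average elsewhere. Prkcd marked VBT (1568 ± 436 CPM, n = 20), Tbr1 marked S1 and PrL (142.7 ± 13.7 CPM, n = 19, and 131.7 ± 20.1 CPM, n = 20), and Drd1 marked NAc (224 ± 64.2 CPM, n = 20). Punches hold many cell types, so fewer cells of a type and less RNA per cell cannot be told apart. In PrL, female water 5 and male water 3 stood apart with summed olfactory bulb markers of 323 and 584 CPM, against at most 65.9 CPM in the other 18 libraries. In NAc, 6 summed cortical excitatory markers ranged from 56.0 to 1442 CPM.

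Each receptor had its own regional profile in mice exposed to water. Grm5 was highest in NAc, Grm2 and Grm8 in PrL, and Grm4 in VBT, while Grm3 and Grm7 varied least. The ratio of the highest to the lowest regional mean CPM was 8.86 for Grm2, 6.05 for Grm4, 5.48 for Grm5, 5.09 for Grm8, 2.08 for Grm3 and 1.86 for Grm7. Differences between neighbouring regions in each order were tested with the quasi-likelihood test of edgeR over all genes in the 48 water libraries, with Benjamini-Hochberg adjustment.

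Grm5, the group I receptor of the list, ranged in NAc water libraries from 373 to 585 CPM with a median of 452 (mean 456 ± 66.0, SD, n = 10). It was next highest in PrL (237 to 328 CPM, median 284, n = 10) and S1 (206 to 263 CPM, median 245, n = 9). It was lowest in VTA (103 to 170 CPM, median 120, n = 9) and VBT (58.0 to 124 CPM, median 81.9, n = 10). No NAc library overlapped a PrL library, and no S1 library overlapped a VTA library. All 4 steps of this order passed the edgeR test. NAc exceeded PrL by 0.58 ± 0.10 on the log2 scale (SE, adjusted p = 1.18e-06) and PrL exceeded S1 by 0.25 ± 0.10 (adjusted p = 0.0379). S1 exceeded VTA by 1.01 ± 0.10 (adjusted p = 2.65e-12) and VTA exceeded VBT by 0.48 ± 0.10 (adjusted p = 4.10e-05). The step between PrL and S1 did not pass without the filter on low counts (adjusted p = 0.0596), and 2 other settings also ended it.

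Grm2, the presynaptic group II autoreceptor, was highest in both cortical regions. It ranged from 71.9 to 109 CPM in PrL (median 84.5, mean 86.8 ± 11.9, n = 10) and from 49.4 to 79.2 CPM in S1 (median 60.1, mean 62.7 ± 10.8, n = 9). The difference between both cortices missed the threshold (log2 0.48 ± 0.29, edgeR adjusted p = 0.191). In VTA it spread from 6.60 to 56.4 CPM (median 22.5, mean 22.6 ± 15.5, n = 9). NAc (4.71 to 21.2 CPM, median 9.69, n = 10) and VBT (2.13 to 18.5 CPM, median 9.60, n = 10) were lowest and overlapped. S1 exceeded VTA by 1.56 ± 0.31 on the log2 scale (adjusted p = 1.76e-05), and VTA exceeded NAc by 1.05 ± 0.30 (adjusted p = 0.00233). Between NAc and VBT the log2 difference was 0.00 ± 0.30 (adjusted p = 0.992). In the fentanyl libraries, VBT exceeded NAc by 1.32 (adjusted p = 0.00129). Whether this region difference changed with exposure was not tested. Fentanyl minus water for Grm2, as the average over sexes, passed in neither VBT (edgeR adjusted p = 0.507) nor NAc (adjusted p = 0.63).

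Grm3, the other group II receptor, which astrocytes also carry, had close means in S1, PrL and NAc. Its water CPM ranged from 86.8 to 107 in S1 (mean 94.0 ± 6.91, n = 9), from 74.9 to 113 in PrL (mean 93.5 ± 12.7, n = 10) and from 69.8 to 101.5 in NAc (mean 87.8 ± 9.79, n = 10). Neither step among these 3 regions passed (edgeR adjusted p = 0.993 and 0.105). Without 4 libraries high in markers of other tissue (PrL female water 5 and male water 3, VBT female water 2 and male water 3), PrL exceeded NAc by 0.25 ± 0.08 and passed (adjusted p = 0.00738), and in the fentanyl libraries S1 minus PrL was -0.23 (adjusted p = 0.0324). VBT was lower (47.7 to 101 CPM, mean 67.1 ± 17.4, n = 10), by 0.26 ± 0.10 against NAc on the log2 scale (adjusted p = 0.0152). VTA was lowest (37.4 to 56.4 CPM, mean 45.2 ± 5.04, n = 9), with VBT 0.70 ± 0.10 above it (adjusted p = 7.26e-08). The highest VBT value, 101 CPM in male water 3, came from a library whose summed striatal markers were 714 CPM, against 54.5 to 496.5 CPM in the other VBT libraries.

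Grm4, a group III receptor of axon terminals, was highest in the thalamic punches. In VBT it ranged from 58.8 to 156.5 CPM (median 136, mean 125.5 ± 30.4, n = 10), and the lowest value was again male water 3. NAc followed (41.7 to 78.0 CPM, median 64.9, mean 62.4 ± 13.4, n = 10), then VTA (24.8 to 48.1 CPM, median 29.5, n = 9). VBT exceeded NAc by 1.16 ± 0.17 on the log2 scale (edgeR adjusted p = 8.51e-08), and NAc exceeded VTA by 0.93 ± 0.18 (adjusted p = 1.34e-05). PrL (16.2 to 48.4 CPM, median 19.3, n = 10) and S1 (17.3 to 27.0 CPM, median 19.2, n = 9) were lowest and did not pass against each other (adjusted p = 0.270) or, for PrL, against VTA (0.31 ± 0.18, adjusted p = 0.122). The PrL libraries at 48.4 and 45.02 CPM were those high in olfactory bulb markers, and the other 8 lay between 16.2 and 28.5 CPM. Without these 2 and VBT female water 2 and male water 3, VTA exceeded PrL by 0.61 ± 0.12 and the difference passed (adjusted p = 2.47e-05). It also passed with fentanyl in place of water libraries (0.65, adjusted p = 8.00e-06) and with VTA male water 3 kept (0.47, adjusted p = 0.0473).

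Grm7, the group III receptor of the presynaptic active zone, had the flattest profile. Its means in water were 87.2 ± 13.9 CPM in NAc (68.6 to 115), 79.7 ± 7.92 in PrL (66.1 to 91.5) and 73.7 ± 4.16 in S1 (66.9 to 80.4). Neither step among these 3 regions passed (edgeR adjusted p = 0.711 and 0.205). VBT had 61.2 ± 6.37 CPM (50.3 to 68.4), with S1 above it by 0.21 ± 0.08 on the log2 scale (adjusted p = 0.0153). VTA had 46.8 ± 5.71 CPM (38.5 to 56.2), with VBT 0.53 ± 0.08 above it (adjusted p = 1.09e-07). Without the 4 libraries high in markers of other tissue, the call between VBT and S1 was lost (VBT minus S1 -0.14, adjusted p = 0.0686), as it was with fentanyl in place of water libraries (-0.16, adjusted p = 0.148). Without those 4, S1 differed from PrL (S1 minus PrL -0.19 ± 0.07, adjusted p = 0.0211).

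Grm8, another presynaptic group III receptor, had the lowest level of the 6 per length of exon in all 5 regions, from 0.632 RPKM in VBT to 3.22 in PrL (mean RPKM, CPM per kilobase of exon, water libraries). It ranged from 19.99 to 43.2 CPM in PrL (median 32.8, mean 31.8 ± 7.29, n = 10) and from 14.04 to 21.8 CPM in VTA (median 17.97, mean 17.4 ± 2.72, n = 9). S1 (7.59 to 15.01 CPM, median 10.1), NAc (5.37 to 15.5 CPM, median 8.22) and VBT (3.55 to 9.99 CPM, median 5.89) followed. PrL exceeded VTA by 0.98 ± 0.16 on the log2 scale (edgeR adjusted p = 6.25e-07), and VTA exceeded S1 by 0.65 ± 0.16 (adjusted p = 0.000571). S1 and NAc did not pass (0.27 ± 0.16, adjusted p = 0.150), while NAc exceeded VBT by 0.41 ± 0.16 (adjusted p = 0.0229). With fentanyl in place of water libraries the first passed and the second did not, with S1 minus NAc at 0.93 (adjusted p = 1.65e-05) and VBT minus NAc at -0.05 (adjusted p = 0.803). Both cortical regions thus differed widely for Grm8, with S1 below PrL by 1.62 ± 0.16 (log2 difference -1.62, adjusted p = 8.06e-11).

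**Figure D1:**
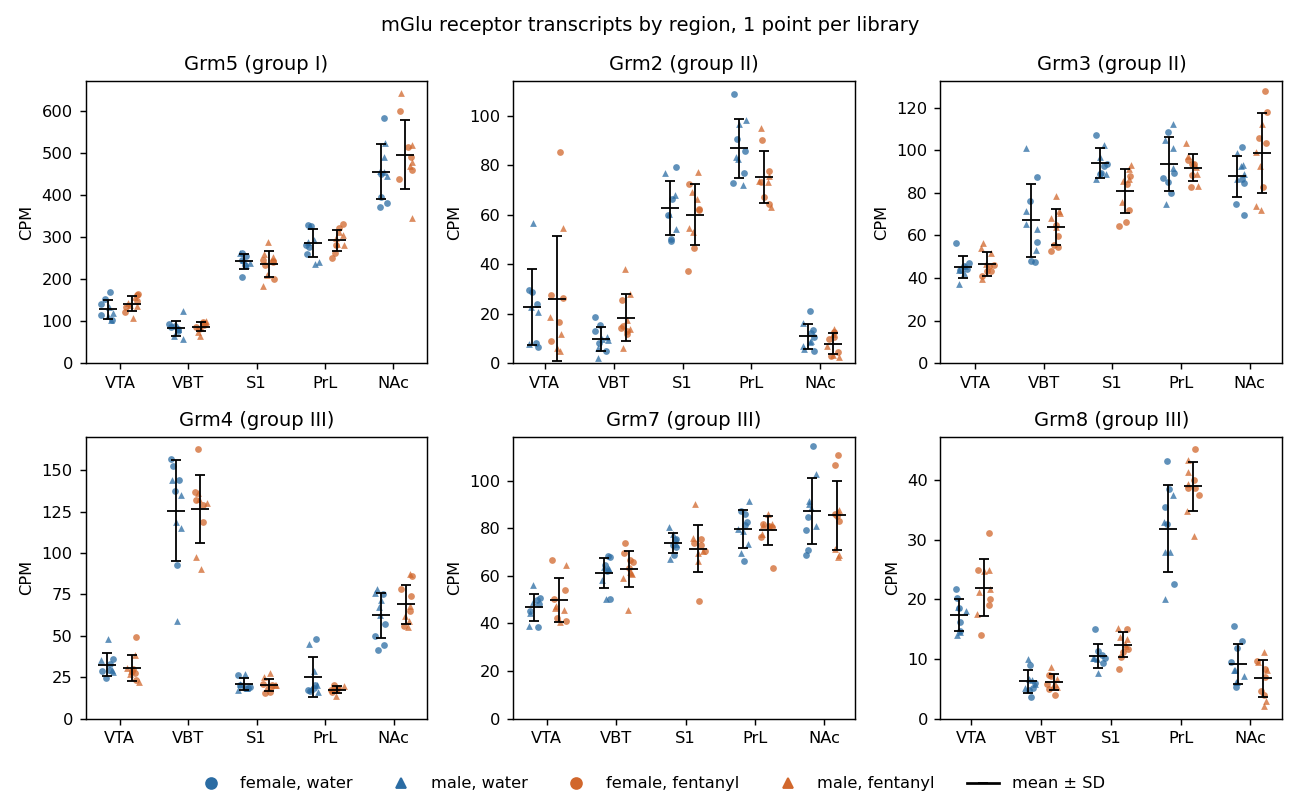
CPM of each receptor (vertical axes, each from 0) in the 98 libraries by region (horizontal axes), with circles for females, triangles for males, blue for water and orange for fentanyl, and bars for the mean ± SD of each exposure. Grm5 peaks in NAc (mean 456 CPM in water), Grm4 in VBT (125.5 CPM), and Grm2 and Grm8 in PrL (86.8 and 31.8 CPM), and the water and fentanyl points of a region overlap for every receptor.

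The receptors called between each pair of regions were counted beside the share of all genes. The edgeR test called all 6 between VTA and VBT, where it called 54.4% of the 20216 genes tested, and between VTA and S1 (69.2% of genes). Against PrL, VTA differed in 5 of 6 (68.2% of genes) and against NAc in 6 of 6 (66.2%). VBT differed from S1 in 6 of 6 (69.8% of genes), from PrL in 6 of 6 (70.1%) and from NAc in 5 of 6 (69.8%). S1 and PrL differed in 2 of 6, Grm5 and Grm8 (39.5% of genes). S1 and NAc differed in 3 of 6, Grm2, Grm4 and Grm5 (55.1% of genes), and PrL and NAc in 4 of 6, Grm2, Grm4, Grm5 and Grm8 (52.1% of genes). The pairs share libraries, so these counts are not independent of each other. With VTA male water 3 kept in the fit, VBT differed from S1 in 3 of 6 and from NAc in 2 of 6, VTA from VBT and NAc in 4 each and from S1 in 5, and VBT from PrL in 4, while that fit called 29.6% (VTA and VBT) to 45.2% (VTA and S1) of all genes in these pairs. Without the 4 libraries high in markers of other tissue the counts were 3 for S1 and PrL (43.7% of genes), 4 for S1 and NAc (57.4%), 5 for PrL and NAc (55%), 6 for VTA and PrL (69.1%), and 5 for VBT and S1 (69.6%).

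Scaled to exon length (RPKM), the balance of the receptors changed from region to region. From the lowest to the highest region, the 6 summed to 47.1 ± 4.41 RPKM (VTA), 64.2 ± 3.49 (VBT), 84.4 ± 3.77 (S1), 97.2 ± 6.11 (PrL) and 101.7 ± 11.9 (NAc; SD, water libraries). Grm5 made up 43.7% ± 2.03 of this sum in NAc (44.5 RPKM) and 12.7% ± 2.56 in VBT (8.12 RPKM). Grm3 held the largest share in the other 4 regions, from 31.5% ± 2.97 in PrL to 36.5% ± 2.01 in S1. In VBT, Grm4 (32.7% ± 7.64) stood beside Grm3 (34.3% ± 8.55), whereas in S1 it held 4.12% ± 0.68. Grm2 held 18.3% ± 2.34 in PrL and 2.26% ± 1.20 in NAc. Grm7 kept to a narrow band, from 13.9% ± 0.99 in PrL to 16.9% ± 1.04 in VTA. Grm8 made up at most 3.73% ± 0.40, in VTA.

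**Figure D2:**
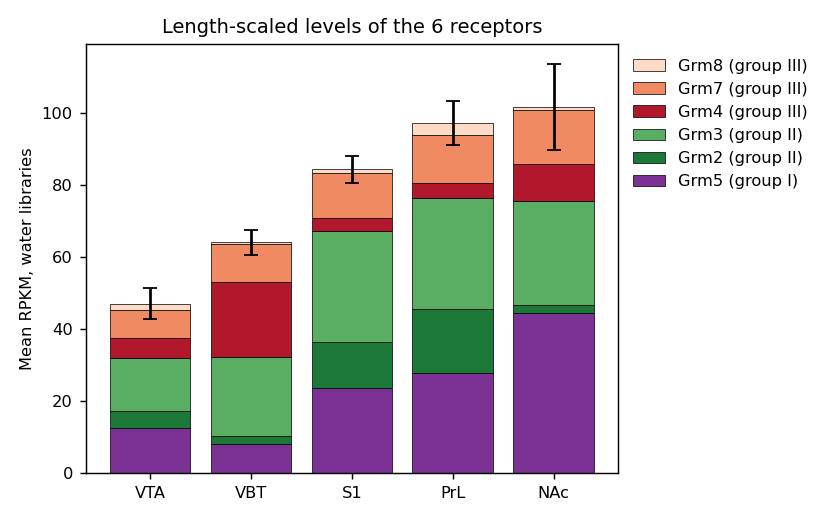
Stacked mean RPKM of the 6 receptors (vertical axis) in the water libraries of each region (horizontal axis), with error bars for the SD of the sum. The sum rises from 47.1 RPKM in VTA to 101.7 in NAc, where Grm5 alone gives 44.5 RPKM.

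The genes with the most similar levels across the 48 water libraries were taken by Pearson's r of log2(CPM + 1), among 10463 genes with a mean of at least 10 CPM. For Grm5 these were Wdr17 (r = 0.981) and Neto1 (0.979), for Grm2 Fxyd7 (0.950) and Fhod3 (0.922), and for Grm3 Kcnh3 (0.910) and Itpr1 (0.903). For Grm4 they were Ppp2r5d (0.951) and Zfp804a (0.944), for Grm7 Slit3 (0.920) and Tpm1 (0.914), and for Grm8 Ncam2 (0.922) and Hk1 (0.881). The libraries of a region share its cell makeup, so these values describe mostly the order of the 5 regions. Neto1 followed Grm5 from 271 CPM in NAc through 135 in PrL and 112 in S1 to 43.5 in VTA and 29.0 in VBT. Zfp804a followed Grm4, with 97.6 CPM in VBT, 47.5 in NAc and 15.3 in S1.

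In mice exposed to water, none of the 6 receptors differed between males and females by the edgeR test in any region. The share of all genes called was 0.0504% for VTA, 0.0898% for VBT, 0.0557% for S1, 0.0513% for NAc and 0.0472% for PrL. An unadjusted p below 0.05 was reached by 1 receptor, Grm4 in NAc, where 2089 of 19480 genes reached it. The Wald test of DESeq2 called 0 receptors. NAc Grm4 in water was 41.7, 57.1, 75.2, 44.8 and 49.8 CPM in females and 67.1, 71.5, 62.6, 75.9 and 78.0 CPM in males. All but 1 of the female values lay below the lowest male value. The log2 difference, males minus females, was 0.37 ± 0.15 (edgeR adjusted p = 0.386). The same female libraries had summed cortical excitatory markers of 261 to 1442 CPM, against 376 to 741 CPM in the male ones. With the marker sum as a covariate the difference was 0.28 ± 0.10 (adjusted p = 0.378).

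Perinatal fentanyl was then compared with water within each region and sex, and as the average over both sexes. Of the 6 receptors, 1 was called, Grm8 in VTA as the average over sexes. VTA Grm8 in females was 20.2, 21.8, 18.6, 16.2 and 14.6 CPM with water and 19.0, 24.8, 31.2, 20.1 and 13.96 CPM with fentanyl. In males it was 14.04, 14.5, 17.97 and 18.7 CPM with water and 17.5, 24.8, 21.2, 21.7 and 25.0 CPM with fentanyl. In females 2 of 5 fentanyl libraries lay above every water library and 1 lay below all of them, and in males 4 of 5 lay above every water library. The log2 fold change was 0.24 ± 0.16 in females (edgeR adjusted p = 0.537) and 0.47 ± 0.17 in males (adjusted p = 0.0553). As the average over sexes it was 0.36 ± 0.12 (adjusted p = 0.0340), and the difference between the sexes, 0.23, did not pass (adjusted p = 0.706).

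In the same average contrast 23.1% of the 19822 genes tested were called, so 1 of 6 receptors is no more than the share of all genes. The male contrast called 22% of genes and 0 of 6 receptors. At p below 0.05 before adjustment were 2 receptors, Grm3 and Grm8, against 6877 of the 19822 genes. DESeq2 called the same 2, against 28.7% of genes. The female contrast and the difference between sexes each called 0% of genes and 0 of 6 receptors. At p below 0.05 before adjustment were 0 and 1 receptors, against 2518 and 2256 genes. DESeq2 called 0 receptors in each, against 0.564% and 0.0396% of genes. Among VTA males, Spearman's rho across genes between a library's deviation from the regional mean and GC content was 0.586 ± 0.052 with water (SD, n = 4) and -0.333 ± 0.185 with fentanyl (n = 5), with no overlap. Exposure and this measure cannot be told apart in these males. With offsets for GC content Grm8 was at 0.22 ± 0.11 as the average (adjusted p = 0.278), and with summed VTA markers as a covariate at 0.27 ± 0.12 (adjusted p = 0.117). Those 6 summed markers, none of them at 0, ranged from 864 to 1499 CPM in VTA males with water and from 335 to 1240 CPM with fentanyl. The call was also lost with no filter on low counts (0.35, adjusted p = 0.0731), with a replicate block (0.32, adjusted p = 0.0715) and with VTA male water 3 kept (0.51 ± 0.51, adjusted p = 0.9999). It held by DESeq2 (adjusted p = 0.0128), with offsets for exon length (adjusted p = 0.0353) and with reads outside exons as a covariate (0.47, adjusted p = 0.00385). Leaving out 1 library at a time ended it for 8 of 19: female fentanyl 2 and 3, female water 4 and 5, male fentanyl 2 and 5, and male water 1 and 2 (adjusted p from 0.0519 to 0.0738).

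In both cortical regions the Grm8 contrast did not pass the correction. S1 Grm8 in males was 10.2, 10.1, 10.0 and 7.59 CPM with water and 12.5, 12.2, 15.2, 13.6 and 13.4 CPM with fentanyl. These groups did not overlap, and the log2 fold change was 0.52 ± 0.15 (edgeR adjusted p = 0.617). In this contrast 0% of the 19748 genes were called, and 1412 had p below 0.05 before adjustment. How many genes separated as fully was not counted. S1 Grm8 in females was 11.3, 10.1, 10.6, 9.40 and 15.01 CPM with water and 8.38, 15.03, 11.7, 10.3 and 11.1 CPM with fentanyl, a log2 fold change of -0.00 ± 0.14. The difference between the sexes was 0.52 ± 0.21 (adjusted p = 0.957).

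PrL Grm8 in females was 38.5, 22.5, 43.2, 32.5 and 35.5 CPM with water and 38.7, 40.0, 45.1, 37.4 and 38.6 CPM with fentanyl. In PrL of males it was 33.0, 27.9, 27.9, 37.5 and 19.99 CPM with water and 43.3, 41.4, 34.8, 30.5 and 39.4 CPM with fentanyl. The fentanyl values lay in the upper part of the water range or above it. In PrL females, reads outside exons made up 11.5% to 13.3% of reads with water and 9.48% to 11.2% with fentanyl, with no overlap, and in males 12.01% to 13.7% and 10.4% to 12.2%. As the average over sexes the log2 fold change was 0.32 ± 0.11 (edgeR adjusted p = 0.137). With reads outside exons as a covariate it was 0.26 ± 0.22 (adjusted p = 0.841). Without the pair of libraries high in olfactory bulb markers it was 0.24 in females and 0.37 in males.

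NAc Grm8, which did not pass either, was 13.1, 9.45, 5.37, 11.8 and 15.5 CPM in females with water and 4.64, 3.94, 6.96, 8.35 and 9.65 CPM in females with fentanyl. In males it was 6.18, 8.22, 8.22, 7.20 and 6.18 CPM with water and 11.2, 3.03, 8.17, 2.18 and 9.51 CPM with fentanyl. The log2 fold change was -0.73 ± 0.38 in females and -0.06 in males (edgeR adjusted p = 0.562 and 0.961). In VBT it was at 0.03 in females and -0.10 in males.

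**Figure D3:**
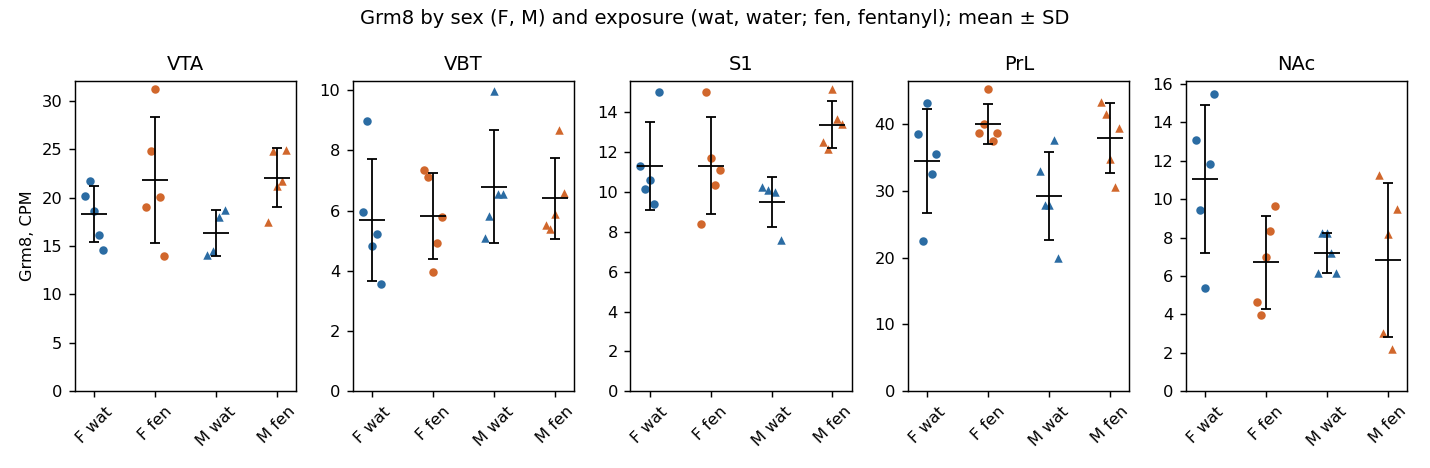
Grm8 CPM (vertical axes, each from 0) by sex and exposure in each region, 1 point per library, with bars for the mean ± SD. In S1 the male fentanyl libraries (12.2 to 15.2 CPM) lie above the male water libraries (7.59 to 10.2 CPM), and in NAc 4 libraries lie under 5 CPM, all from fentanyl groups. Grm8 passed the correction in neither of these regions.

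In NAc, the 4 libraries lowest in Grm2 were also the 4 lowest in Grm8 and in summed cortical excitatory markers. Female fentanyl 1, with the lowest marker sum of 56.0 CPM, had Grm2 at 2.92, Grm8 at 4.64 and Grm5 at 600.4 CPM. Female water 1, with the highest sum of 1442 CPM, had Grm2 at 21.2, Grm8 at 13.1 and Grm5 at 381 CPM. The 6 markers (Tbr1, Neurod6, Emx1, Slc17a7 and Neurod2 among them), none at 0, summed to 261 to 1442 CPM in females with water and 56.0 to 864 CPM with fentanyl. In males they summed to 376 to 741 CPM and 91.3 to 792 CPM. With the marker sum as a covariate the female Grm8 log2 fold change was -0.04, and Grm7 in males went from -0.21 (adjusted p = 0.401) to -0.30 ± 0.08 (edgeR adjusted p = 0.0430). This covariate was chosen after seeing the data, and its fit also called more of all genes in NAc males than the main fit. The cause of these shifts was not tested.

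**Figure D4:**
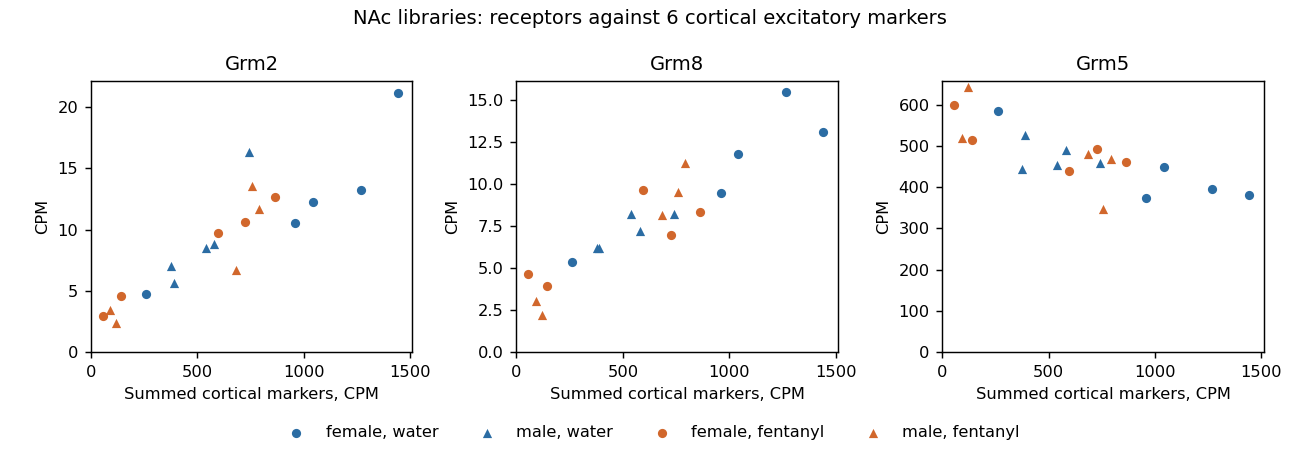
Grm2, Grm8 and Grm5 CPM (vertical axes) against the summed CPM of 6 cortical excitatory markers (horizontal axes) in the 20 NAc libraries, coloured by exposure. Grm2 and Grm8 are lowest where the marker sum is lowest, and Grm5 is 600.4 CPM in the library with the lowest sum and 381 CPM in that with the highest.

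With the settings used throughout, the other 5 receptors passed in no region by the edgeR test, in either sex or as the average. NAc called 0 of 6 receptors in females (0% of 19480 genes), in males (0.662%), as the average (0%) and for the difference between sexes (0%). At p below 0.05 before adjustment were 2, 0, 0 and 2 receptors, against 1760, 3437, 2343 and 2966 of all genes. DESeq2 called 0 receptors in each. Grm4 in NAc females was 41.7 to 75.2 CPM with water and 55.6 to 86.1 CPM with fentanyl (log2 fold change 0.42 ± 0.15, adjusted p = 0.544), and Grm3 was 69.8 to 101.5 CPM and 82.8 to 128 CPM (0.36 ± 0.13, adjusted p = 0.544). Grm5, the receptor with the highest level in NAc, was 437 ± 88.2 CPM with water and 501 ± 62.7 CPM with fentanyl in females (n = 5 each). In males it was 475 ± 33.3 and 492 ± 106 CPM. Its log2 fold changes were 0.19 ± 0.14 and 0.09 ± 0.14. With the cortical marker sum as a covariate, Grm5 was at 0.01 in females and -0.00 in males, and both Grm4 and Grm3 in females were at 0.22.

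S1 called 0 of 6 in females (0.142% of 19748 genes), in males (0%), as the average (1.03%) and for the difference between sexes (0%). At p below 0.05 before adjustment were 1, 1, 2 and 1 receptors, against 2752, 1412, 3127 and 817 of all genes. DESeq2 called 1 receptor, Grm3 in females, where it called 2.47% of genes. S1 Grm3 in females was 89.3, 107, 92.5, 88.9 and 93.5 CPM with water and 72.1, 66.5, 84.2, 88.1 and 64.5 CPM with fentanyl. Every fentanyl value lay below every water value, and how many genes separated as fully was not counted. The same groups did not overlap in the correlation across genes of a library's deviation with exon length (rho 0.144 ± 0.097 with water and -0.184 ± 0.120 with fentanyl, SD, n = 5 each). The log2 fold change was -0.34 ± 0.09 by edgeR (adjusted p = 0.0905), and DESeq2 gave -0.34 with an adjusted p of 0.0248. With offsets for exon length edgeR gave -0.38 (adjusted p = 0.129). In S1 males Grm3 was 86.8, 88.8, 102 and 96.9 CPM with water and 86.5, 85.5, 75.9, 93.4 and 91.5 CPM with fentanyl, which overlapped (-0.09 ± 0.09).

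PrL called 0 of 6 in females (0.021% of 19074 genes), in males (0%), as the average (0.697%) and for the difference between sexes (0%). At p below 0.05 before adjustment were 0, 1, 3 and 0 receptors, against 1817, 2284, 3638 and 494 of all genes. DESeq2 called 0 receptors in each. Besides Grm8, the receptors at p below 0.05 before adjustment were Grm2 and Grm4 as averages. PrL Grm2 was 86.8 ± 11.9 CPM with water and 75.3 ± 10.4 CPM with fentanyl (n = 10 each, both sexes), a log2 fold change of -0.18 ± 0.08 (edgeR adjusted p = 0.249). PrL Grm4 was at -0.47 ± 0.20 (adjusted p = 0.215), and at -0.13 without the 2 water libraries high in olfactory bulb markers, which held its highest values.

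VBT called 0 of 6 and 0% of 18923 genes in females, in males, as the average and for the difference between sexes. At p below 0.05 before adjustment were 0, 1, 1 and 0 receptors, against 1487, 1646, 1606 and 1520 of all genes. DESeq2 called 0 receptors in each. The 1 receptor was Grm2, which in VBT males was 9.29, 9.90, 2.13, 5.90 and 10.7 CPM with water and 13.6, 17.3, 6.02, 38.1 and 28.1 CPM with fentanyl. In males 4 of 5 fentanyl values lay above every water value, and the log2 fold change was 1.39 ± 0.46 (edgeR adjusted p = 0.357). VBT Grm2 in females was 13.0, 4.68, 18.5, 8.27 and 15.5 CPM with water and 25.6, 14.3, 15.1, 11.7 and 13.1 CPM with fentanyl (0.39 ± 0.45). Male fentanyl 4 and 5, with the highest Grm2, had summed thalamic relay markers of 1956 and 1648 CPM, against 3180 to 3370 CPM in the other 3 libraries of that group. Their part in the Grm2 difference was not tested. VBT Grm4, the receptor highest in that region, was at -0.02 ± 0.20 in females and 0.02 ± 0.20 in males.

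VTA Grm3 in males did not pass in edgeR with the settings used throughout. It was 43.7, 45.8, 37.4 and 42.5 CPM with water and 56.5, 46.4, 54.2, 51.7 and 39.5 CPM with fentanyl, a log2 fold change of 0.27 ± 0.11 (edgeR adjusted p = 0.0729). DESeq2 called it (0.28, adjusted p = 0.0459), as did edgeR with offsets for exon length (0.35, adjusted p = 0.0452) and without male fentanyl 5 (0.36, adjusted p = 0.0155). The first 2 of these settings called 28.7% and 20.3% of all genes in VTA males. No other setting called it, GC offsets and VTA markers as a covariate among them, nor did leaving out any other library. VTA Grm3 in females was at -0.13 ± 0.10, and the difference between the sexes was 0.40 ± 0.15 (adjusted p = 0.420). VTA Grm2 varied widely within each group. It was 6.60, 24.0, 28.5, 29.3 and 7.91 CPM in females with water and 26.4, 27.4, 85.2, 16.7 and 8.72 CPM with fentanyl. In males it was 20.6, 7.86, 56.4 and 22.5 CPM with water and 4.87, 18.6, 11.9, 6.03 and 54.7 CPM with fentanyl. The 3 VTA libraries with Grm2 over 50 CPM also had the 3 highest Grm4 values (49.6, 48.1 and 38.3 CPM) and the 3 lowest Grm3 values (41.0, 37.4 and 39.5 CPM). One of them, female fentanyl 3, had a cortical excitatory marker sum of 173 CPM, against at most 73.7 CPM in the other VTA libraries, and the other 2 had 15.9 and 23.9 CPM.

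**Figure D5:**
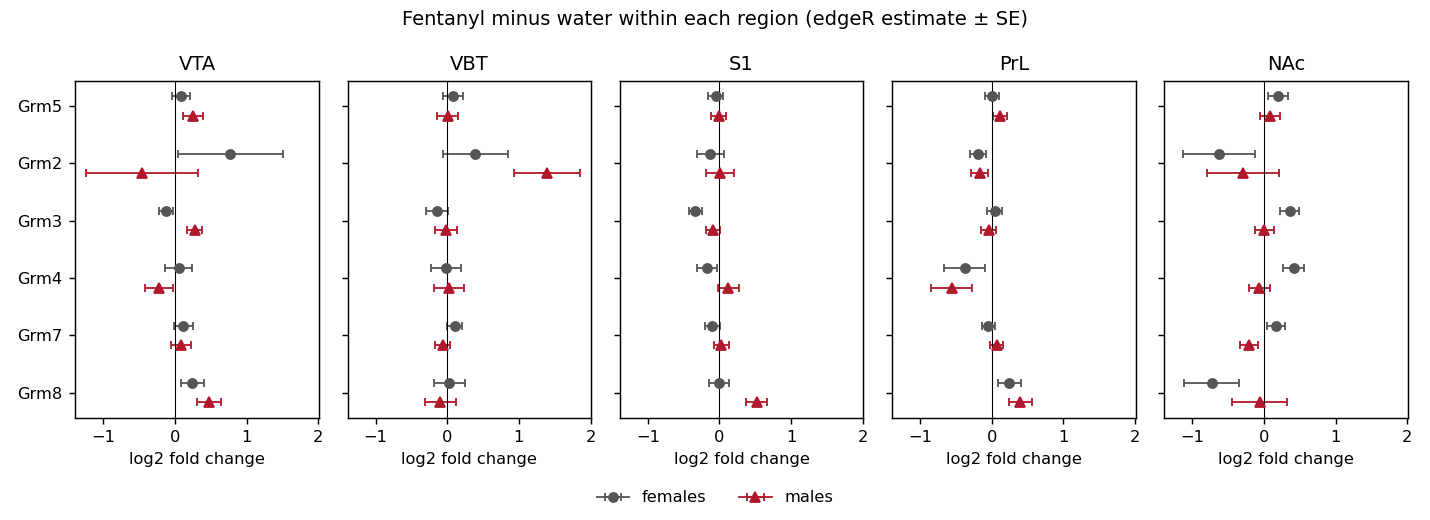
Log2 fold change of fentanyl over water (horizontal axes) for each receptor in females (grey circles) and males (red triangles) by region, as the edgeR estimate ± SE. Grm8 in VTA males is at 0.47 and in S1 males at 0.52, and Grm2 in VBT males is at 1.39 ± 0.46. The widest errors are those of Grm2 in VTA, with an SE of 0.74 in females and 0.78 in males.

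Other genes of the pathway were read from lists of 51 genes, of which 49 were tested in each region. Grm6, a receptor of retinal bipolar cells, averaged at most 0.0221 CPM over the water libraries of any region and was not tested. Of the 49 genes, 18 were called in VTA males, 4 up and 14 down (36.7%, against 22% of all genes), with a median log2 fold change of 0.01 against 0.00 over all genes. The average over sexes called 6 up and 12 down (36.7%, against 23.1% of all genes). The VTA female contrast and all contrasts in VBT, NAc and PrL called 0 by edgeR, and S1 called 1, Arrb2, as the average. In VTA females 11 of the 49 genes had p below 0.05 before adjustment, against 2518 of all 19822 genes.

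Of the 20 tested scaffold and Gq genes of group I receptors, 3 rose and 8 fell in VTA males (55%, against 22% of all genes). Homer1, whose protein tethers mGlu5, rose from 31.7 ± 1.44 CPM (SD, n = 4) to 41.4 ± 4.70 CPM (n = 5), and Fmr1, which binds mRNA at synapses under mGlu5 signalling, from 60.8 ± 2.52 to 76.4 ± 6.76 CPM. Of the postsynaptic scaffolds, Shank1 fell from 327 ± 9.56 to 242 ± 26.6 CPM and Shank3 from 104 ± 3.23 to 75.5 ± 9.42 CPM. Of the 15 Gi/o genes and partners of groups II and III, 1 rose and 6 fell (46.7%). Pick1, a protein that binds the mGlu7 tail, fell from 18.2 ± 1.67 to 10.9 ± 0.84 CPM (log2 fold change -0.70), and Elfn2, a postsynaptic partner of group III receptors, from 171 ± 4.78 to 131 ± 14.6 CPM. Gnai3, a Gi alpha subunit, rose from 41.3 ± 1.97 to 46.1 ± 2.64 CPM. None of the 13 genes of glutamate supply and clearance was called in males, and as the average Slc17a7, a vesicular glutamate transporter, rose (2.54 ± 0.66). Slc17a7 is one of the cortical excitatory markers and was at 46.1 ± 59.1 CPM in females with fentanyl. These calls changed with the handling of GC content. The male VTA groups did not overlap in the correlation with GC content, so exposure and this library measure cannot be told apart. With offsets for GC content, 2 of the 49 genes were called in males and 3 as the average, against 3.44% and 3.97% of all genes, and the log2 fold change in males was 0.02 ± 0.05 for Shank1, 0.02 ± 0.07 for Shank3, 0.02 ± 0.05 for Gnai3, -0.02 ± 0.08 for Elfn2, 0.14 ± 0.07 for Fmr1 and 0.16 ± 0.09 for Homer1, none of them called. Pick1 was still called in males, at -0.58 ± 0.10 (edgeR adjusted p = 0.00973), and Slc17a7 as the average, at 2.71 ± 0.64 (adjusted p = 0.0293). The Slc17a7 call was lost with a replicate block (1.97, adjusted p = 0.0525) and with VTA male water 3 kept (0.44, adjusted p = 0.9999). With summed VTA markers as a covariate 7 genes were called in males, all lower, and 13 as the average, against 12.1% and 16.6% of all genes. Homer1 (adjusted p = 0.0647), Fmr1 (0.0719) and Gnai3 (0.0936) were then not called in males. With VTA male water 3 kept the count was 0 in both (0.216% and 0.309% of all genes). Leaving out 1 library at a time gave 9 to 21 in males, with 9 without male water 4 and 10 without male water 5 or male fentanyl 1.

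In S1, Arrb2, which encodes an arrestin that ends receptor signalling, was at 0.24 ± 0.06 as the average (edgeR adjusted p = 0.0457). It was 28.9 ± 2.23 CPM with water and 36.8 ± 1.02 CPM with fentanyl in females (SD, n = 5 each), and 30.5 ± 3.88 (n = 4) and 33.3 ± 4.15 CPM (n = 5) in males. The call covers 1 of 49 genes, against 1.03% of all genes. It was lost with a replicate block (0.23, adjusted p = 0.0854), with reads outside exons as a covariate (0.24, adjusted p = 0.0868), and on leaving out 15 of the 19 libraries in turn (highest adjusted p = 0.112).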

How the data were processed

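Each library has a file of deposited raw read counts by Ensembl gene, as whole numbers, for which the submitters' processing notes name HTSeq and GRCm38. The aligner, annotation release and counting settings are not given in the sources used here. The labels' protocols name the SMART-Seq v4 kit, with 10 ng of input RNA. Symbols, positions and merged exon lengths came from GENCODE M21 (55154 of 55335 genes matched). The 5 lines of unassigned reads in each file were left out of totals and tests, and reads outside exons were 9.48% to 17.0% of all reads.

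Totals ranged from 16515545 to 52069639 counts per library. VTA male water 3 had counts for fewer than 10000 genes and was left out of the main fits. Each region was fitted over its 4 groups of sex and exposure with the quasi-likelihood test of edgeR 4.0.16 (R 4.3.3, TMM, filterByExpr, robust). Regions were compared in 1 fit over the water libraries. Adjustment was by Benjamini-Hochberg over every gene tested, and an adjusted p under 0.05 is called. SEs were derived from the F statistic. CPM and RPKM use totals over genes. Reads carry no molecular identifiers, so counts are not counts of molecules.

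Alternatives were DESeq2 1.42.0 (Wald test, or its size factors in edgeR), no filter, a replicate block, offsets for GC content or exon length, reads outside exons as a covariate, the left-out library kept, fentanyl in place of water libraries, and each library left out. Marker sums as covariates and fits without libraries high in markers of other tissue were chosen after seeing the data. The fits were tested on simulated data. Tables were handled in Python 3.11.15 with numpy 2.4.6 and pandas 2.3.3.

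The 6 receptors were named in every region. For each, the 2 genes with the highest Pearson's r over the water libraries were named. Of the pathway lists, at most the 2 called genes that rose and the 2 that fell with the smallest p were named per list and contrast. Genes that the rule takes from contrasts with no call are not described. Some genes of the lists are not reported here. The members and lists were chosen with earlier results of these data known. Replicate numbers did not pair the libraries of a region (mean correlation of same-numbered libraries between -0.05 and 0.01).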

Additional observations from a re-analysis of the deposited data

Results flagged for a closer look

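Within groups of 4 or 5 libraries, a value was picked out when its gap to the next value, divided by the range of the group, exceeded the critical value of Dixon's test for that number at 95%. Of 120 groups of 1 receptor, region, sex and exposure, 14 had such a value, and chance alone gives about 1 in 20 groups, or 6. The causes were not tested.

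In VTA, female fentanyl 3 was high in Grm2 (85.2 CPM, others 8.72 to 27.4) and in Grm4 (49.6 CPM, others 23.6 to 29.9). Male fentanyl 5 was high in Grm2 (54.7 CPM, others 4.87 to 18.6) and Grm7 (64.5 CPM, others 40.6 to 47.2), and female water 1 was high in Grm3 (56.4 CPM, others 43.8 to 47.0). In VBT, female fentanyl 1 was high in Grm2 (25.6 CPM, others 11.7 to 15.1) and male fentanyl 5 was low in Grm7 (45.6 CPM, others 59.0 to 61.6).

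In S1, female fentanyl 5 was low in Grm5 (200.8 CPM, others 233 to 246) and in Grm7 (49.6 CPM, others 70.4 to 75.4). Its summed oligodendrocyte markers were 13680 CPM, the highest of the region. Female water 2 was high in Grm3 (107 CPM, others 88.9 to 93.5), female water 1 was high in Grm4 (26.2 CPM, others 18.3 to 20.5), and male water 5 was low in Grm8 (7.59 CPM, others 10.0 to 10.2). In PrL, female water 5 was high in Grm4 (48.4 CPM, others 16.5 to 20.4) and low in Grm7 (66.1 CPM, others 81.5 to 87.2), and its olfactory bulb markers summed to 323 CPM.

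The library left out of the fits, VTA male water 3, had Grm4 at 102 CPM, against 28.1 to 48.1 CPM in the other male water libraries of VTA. Its summed thalamic relay markers were 1875 CPM and its summed VTA markers 142 CPM.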

How the results depend on the processing

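Most counts of called receptors within a region were 0, where few or no genes were called at all, so that their staying at 0 says nothing of stability. In VTA males, where edgeR called 0 receptors, DESeq2 called 2 (Grm3 and Grm8), offsets for exon length 1 (Grm3) and reads outside exons as a covariate 1 (Grm8). These settings called 28.7%, 20.3% and 27% of all genes. As the VTA average over sexes, the count of 1 became 0 with no filter on low counts (10.1% of all genes called), with offsets for GC content (3.97%), with the left-out library kept (0.309%) and with summed VTA markers as a covariate (16.6%). With 1 library left out, both counts ranged from 0 to 1, and the VTA male count was 1 without female fentanyl 3 or 5, or male fentanyl 1 or 5. The replicate numbers do not pair the libraries, and with a replicate block Grm8 was at 0.32 (adjusted p = 0.0715) while Grm5 was called at 0.18 (adjusted p = 0.0491), so that the VTA average count stayed at 1 (21.2% of all genes called). S1 females had 1 (Grm3) by DESeq2, which called 2.47% of genes there, against 0 by edgeR. NAc males had 1 (Grm7) with summed cortical markers as a covariate, against 0 in the main fit. That covariate fit also called more of all genes than the main fit.

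Between regions, keeping the library with few genes lowered the count to 3 for VBT and S1 (43% of all genes called), to 2 for VBT and NAc (43.9%), and to 1 for S1 and PrL (11.8%). The last count was also 1 with no filter (19.7%) and with a replicate block of sex and number (40.1%). With fentanyl in place of water libraries, S1 and NAc differed in 5 receptors (57.3% of all genes), the log2 difference of Grm2 for VBT minus NAc became 1.32 (from -0.00), and that of Grm3 for S1 minus NAc became -0.24 (from 0.18). The causes were not tested.

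Counts over all genes moved more. VTA males had 4355 called genes, 681 with offsets for GC content, 42 with the left-out library kept and 2399 with summed VTA markers as a covariate, and the VTA average had 4580, then 786 with GC offsets and 60 with that library kept. By DESeq2, S1 females had 409 against 28, NAc males 907 against 129 and PrL females 44 against 4, and the averages had 634 against 203 in S1 and 777 against 133 in PrL. Where edgeR called 0 genes, DESeq2 called 88 in VTA females, 52 in VBT males, 41 in VBT females, 27 in PrL males, 13 in NAc females and 110 as the NAc average. For the difference between sexes it called 465 genes in NAc, 111 in VBT, 7 in VTA and 1 in PrL, against 0, and for males against females in water 39 against 10 in VTA, 41 against 17 in VBT and 61 against 10 in NAc. Reads outside exons as a covariate gave 155 in VTA females, 316 in NAc males and 394 as the NAc average, and left 1 in S1 and 0 in PrL as averages and 0 in S1 females, as did offsets for exon length there. GC offsets gave 573 in NAc males, 32 for the NAc difference between sexes, 206 as the PrL average and 0 in PrL females. The replicate block gave 2 in NAc males, 51 in S1 females and 112 as the S1 average, and without a filter there were 75 in NAc males and 59 in S1 females. Summed cortical markers as a covariate gave 575 in NAc males, and the PrL average was 66 without the 2 libraries high in olfactory bulb markers. With 1 library left out the counts ranged from 0 to 813 in NAc males, from 0 to 449 for the NAc difference between sexes, from 30 to 502 as the S1 average, from 0 to 220 in S1 females, from 38 to 289 as the PrL average and from 2659 to 4664 in VTA males.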
